A study of Mus musculus with 10 samples.

Results

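The genes described here make, esterify and move cholesterol: 31 genes chosen by name from the 30984 rows of a deposited expression table of mouse blood. All 31 symbols matched 1 row each, and all 31 passed the filter on low counts that left 17268 genes for testing. The list was put together with earlier results of these libraries known. Soat2 headed it because its values in the sample groups had been seen, so the group values of the members are a description and no test is drawn from them. The libraries were made from mouse whole blood, which the labels also tag as lymphocyte and as monocytes. Of the 10 libraries, 6 carry the treatment label burn wound healing (called burn here) and 4 the label burn wound healing-NC (called NC here). Both labels name the burn wound, and NC is not expanded in the labels used here. The series title mentions MnCl2, but no sample label says which group received it. The sources used here do not give strain, age, time after injury or any pooling of animals. Nothing says that the libraries of a group came from separate animals, so any p-value measures only the spread between these libraries, which may be technical.

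Cells make cholesterol from acetyl-CoA through the mevalonate pathway to squalene, close squalene into lanosterol, and trim lanosterol to cholesterol. When membrane cholesterol falls, the carrier Scap brings the factors SREBP1 and SREBP2 to the Golgi for cleavage, and the released fragments switch on these enzymes. Insig proteins hold the complex back when sterol is plentiful. Excess sterol is stored as esters made by sterol O-acyltransferases, or is exported by ABC transporters whose genes answer to the oxysterol-sensing liver X receptors (LXR). In blood, monocytes, neutrophils and lymphocytes all run parts of this system.

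Library totals lay between 30677206 and 36379663 counts. Blood cell markers were present: all 10 T cell, 10 monocyte, 8 B cell and 12 neutrophil markers had counts. Haemoglobin genes took 7.17% to 12.8% of a library. NC 1 stood apart, with 6.53% of its counts in mitochondrial ribosomal RNA against 1.30% to 3.48% in the others. It also had the highest summed neutrophil markers (6189 CPM, depth-scaled counts with TMM factors) and platelet markers (11572 CPM). NC 1 was the lowest library for 17 of the 31 members (54.8%), against 24.7% of all genes tested. In such bulk samples, fewer cells of a type and less RNA per cell cannot be told apart.

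Promoter sequences were on hand for 24 of the 31 members, as RefSeq windows on GRCm38.p6 from 250 bases before to 50 bases after a start. Shown are the windows of Hmgcs1, the member window with a sterol response element match, and of Pmvk (the first of its listed starts) and Nr1h2, whose libraries separated by group. Capitals mark matches to the sterol response element TCACNCCAC, the site of SREBP, and to CCAAT, the box bound by its partner NF-Y, each searched on both strands.
Hmgcs1 (chr13:119690101-119690400, plus strand): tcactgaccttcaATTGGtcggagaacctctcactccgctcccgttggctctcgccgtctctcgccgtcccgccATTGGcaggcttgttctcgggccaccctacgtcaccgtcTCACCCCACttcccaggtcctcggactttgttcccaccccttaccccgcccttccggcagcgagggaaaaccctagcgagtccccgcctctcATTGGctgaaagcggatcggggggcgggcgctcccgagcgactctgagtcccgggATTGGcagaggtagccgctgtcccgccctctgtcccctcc
Pmvk (chr3:89454291-89454590, plus strand): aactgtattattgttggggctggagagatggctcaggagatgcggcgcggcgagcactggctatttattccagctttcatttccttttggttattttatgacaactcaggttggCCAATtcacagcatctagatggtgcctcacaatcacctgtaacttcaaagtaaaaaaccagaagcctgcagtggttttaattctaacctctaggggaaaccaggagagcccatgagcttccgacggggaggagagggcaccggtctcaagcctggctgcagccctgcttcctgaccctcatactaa
Nr1h2 (chr7:44553916-44554215, minus strand): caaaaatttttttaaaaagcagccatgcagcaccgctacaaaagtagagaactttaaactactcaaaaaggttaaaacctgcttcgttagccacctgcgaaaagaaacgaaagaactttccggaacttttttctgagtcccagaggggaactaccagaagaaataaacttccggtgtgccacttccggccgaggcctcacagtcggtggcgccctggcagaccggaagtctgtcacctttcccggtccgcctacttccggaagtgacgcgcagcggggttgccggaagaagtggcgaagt
The Hmgcs1 window held 1 sterol response element match, TCACCCCAC, which began 137 bases before the start, and 4 matches to the CCAAT box. No match overlapped another. The Pmvk window held 1 CCAAT match and the Nr1h2 window neither motif. The sterol response element matched in 1 of the 24 member genes and in 1.24% of all 32851 promoter windows. CCAAT matched in 19 of the 24 member genes, counted over all their listed starts, and in 37.4% of all windows. The GC box GGGCGG, the site of Sp1, matched in 21 of the 24 and in 35.7% of all windows. Member figures count genes with a match at any listed start, and the shares count single windows, so they cannot be compared directly. The LXR motif known as DR4 matched in 0 of the 24 and in 5 of all windows. A match is a description of letters, not of binding.

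Per gene length the members spanned a wide range of levels. Deposited FPKM (depth- and length-scaled fragments) put Npc2 first, with a mean of 75.9 over the 10 libraries, and Fdps last, with 0.192. The mean FPKM was above 10 for 7 members, from 1 to 10 for 22, and under 1 for 2, which were Nr1h3 at 0.823 and Fdps. After Npc2, the lysosomal carrier, came the receptor gene Nr1h2 at 25.2, Srebf2 at 24.2 and Mylip at 23.5, which do not differ beyond their spread between libraries. Ebp at 12.7, Abcg1 at 12.4 and Soat1 at 10.8 followed, again within their spread. Above Fdps, the lowest enzymes were Mvk at 1.51, Idi1 at 1.47 and Lss at 1.06.

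**Figure D1:**
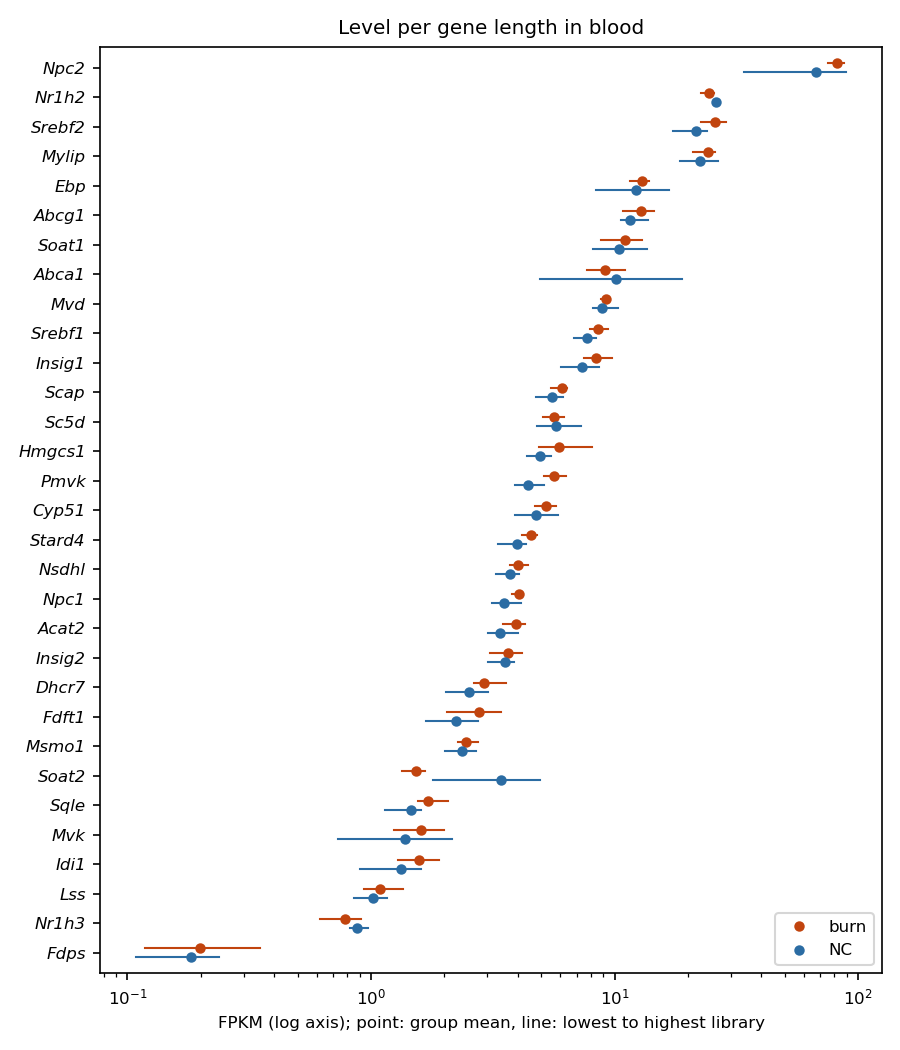
FPKM of the 31 genes on a log axis, ordered by the mean over all libraries; points are the means of 6 burn (orange) and 4 NC (blue) libraries and lines run from the lowest to the highest library. Npc2 stands highest and Fdps lowest, and Soat2 is the gene whose group means are farthest apart.

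The low value of Fdps, the enzyme that makes farnesyl diphosphate, rests on 275 counts over all libraries, 14 to 53 in each. Of the 75-base stretches of its transcripts, 23.5% also occur in transcripts of other genes in GENCODE release M21. These genes include the overlapping Gm43738 and the processed pseudogenes Gm3571, with 416 counts over all libraries, and Gm5873, with 124. The sources used here do not say how reads that fit several genes were counted, so the level of Fdps is uncertain. The same holds for Acat2, which shares 33.9% of its stretches with Acat3 and 9.19% with Tcp1. Over all libraries Acat3 had 130 counts and Tcp1 47205, against 3211 for Acat2. It also holds for Idi1, which shares 16.7% with the pseudogene Gm13502. Soat2, Pmvk and Nr1h2 share 0 stretches with other genes.

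Soat2 encodes a sterol O-acyltransferase known from liver and intestine, and Soat1 the form found in most cells. Soat2 (ENSMUSG00000023045; mm10 chromosome 15, 102150526 to 102163469, plus strand, protein coding) was lower in every burn library than in every NC library. Burn libraries held 2.90 CPM at the lowest, 3.41 at the median and 3.69 at the highest. NC 1 to 4 held 11.1, 5.70, 4.23 and 9.60 CPM. The burn libraries were close together, and the NC libraries were spread over a wide range, with NC 1 and NC 4 high and NC 3 only just above burn 1. The values rest on 100 to 131 counts per burn library and 122 to 363 per NC library. The mean was 3.34 ± 0.32 CPM in burn (SD, n = 6) and 7.67 ± 3.24 in NC (SD, n = 4), a ratio of NC over burn of 2.29, and edgeR gave a log2 difference of burn minus NC of -1.20 (SE 0.24). Deposited FPKM ran from 1.34 to 1.66 in burn and from 1.80 to 4.95 in NC.

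Soat1 (ENSMUSG00000026600; chromosome 1, 156424525 to 156474331, minus strand, protein coding) did not separate the groups. Burn libraries held 87.1 CPM at the lowest, 109 at the median and 124 at the highest, and NC 1 to 4 held 103, 95.9, 85.4 and 129 CPM. Its log2 difference was 0.04 (SE 0.13). On the FPKM scale Soat2 stood at 10.3% to 16.9% of Soat1 in burn libraries and at 47.8%, 26.3%, 21.9% and 32.8% in NC 1 to 4. Soat1 was the more abundant of the pair in all 10 libraries.

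**Figure D2:**
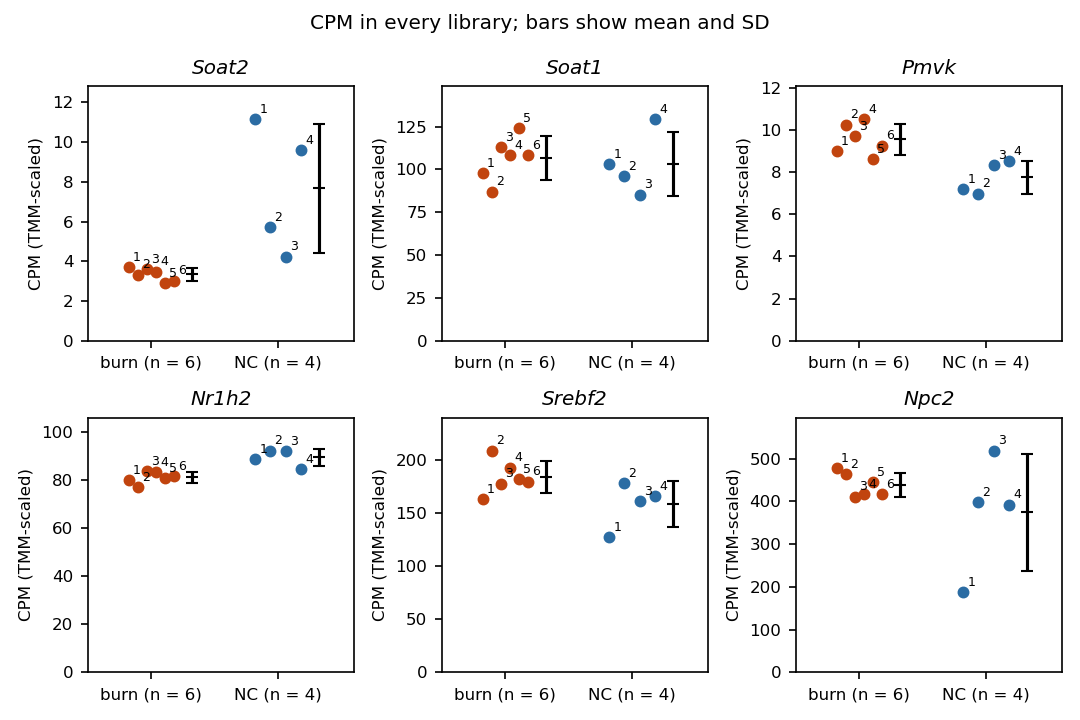
TMM-scaled CPM of 6 genes in every library, with the replicate number beside each point and the group mean ± SD as a bar (burn n = 6, NC n = 4). For Soat2 the burn points lie between 2.90 and 3.69 CPM, below all 4 NC points, while Soat1, Srebf2 and Npc2 overlap between groups.

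Summed markers of other cells and tissues followed Soat2 to differing degrees. Neutrophil markers (12 of 12 with counts, all 12 with a lower mean in burn) summed to 861 to 2430 CPM in burn and to 6189, 634, 1040 and 4830 CPM in NC 1 to 4. NC 1 and NC 4 were thus high on both, while NC 2 was below every burn library on these markers and above every burn library on Soat2. Eosinophil and basophil markers (8 of 8 with counts) summed to 18.8 to 32.4 CPM in burn and 39.9, 33.2, 29.1 and 43.9 CPM in NC 1 to 4. Connective tissue markers (7 of 7 with counts, all 7 with a lower mean in burn) summed to 4.13 to 23.0 CPM in burn, with burn 1 the highest. They summed to 56.9, 28.6, 24.0 and 29.98 CPM in NC 1 to 4. The groups thus did not overlap, though burn 1 and NC 3 were close, and the NC libraries had the same order as for Soat2. Dendritic cell markers (8 of 8 with counts) summed to 16.1 to 24.6 CPM in burn and 42.1, 26.8, 32.2 and 20.9 CPM in NC 1 to 4. Monocyte markers summed to 4653 to 7027 CPM in burn and 5248 to 6267 in NC, so the groups overlapped. Plasma cell sums (218 to 327 CPM in burn, 262 to 967 in NC) overlapped too. So did NK and cytotoxic lymphocyte sums (233 to 355 CPM in burn, 206 to 703 in NC). The part of these cells and tissues in the Soat2 result was not tested. Hepatocyte markers were near 0, with a sum of 0.425 to 2.29 CPM in burn and 0.598 to 2.33 in NC. Enterocyte markers (5 of 7 with counts, Fabp2 and Apoa4 having no row) summed to 5.55 to 8.69 CPM in burn and 5.31 to 6.86 in NC. With both NC 1 and NC 4 left out, a choice made after the data were seen, the Soat2 difference was -0.57. It was -0.96 without NC 1 and -1.43 without NC 3.

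**Figure D3:**
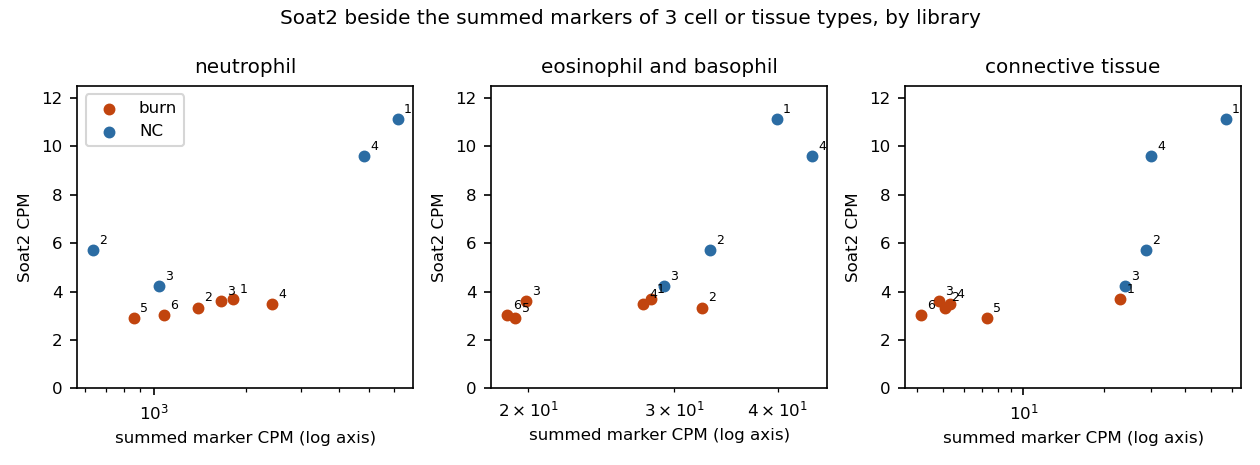
Soat2 CPM against the summed CPM of neutrophil, eosinophil and basophil, and connective tissue markers (log axis; the Soat2 axis is linear), with 1 point per library labelled by replicate number. NC 1 and NC 4 are high on Soat2 and on neutrophil markers, and burn 1 lies beside NC 3 on connective tissue markers.

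The comparison of burn with NC called no gene of the whole table in edgeR. At an adjusted p under 0.05 the call was made for 0 of 17268 genes (0%) and so for 0 of the 31 members. Without adjustment, p was under 0.05 for 1943 genes (11.3%), among them 3 members, Soat2, Pmvk and Nr1h2. DESeq2 called 85 genes (0.493%), of which Soat2 was the only member (DESeq2 adjusted p 0.0045). The CPM of the groups did not overlap for 350 genes (2.03%) and for the same 3 members. Nothing is read from these counts, since the members were chosen with this contrast known. Apart from Soat2, the log2 differences of the members were between -0.22 and 0.30. Values were higher in burn for 24 members and lower for 7, with a median of 0.09, where 54.7% of all genes had higher values and the median was 0.02. Over all alternative settings 19 to 27 members were higher in burn, and the median was 0.04 without NC 1.

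**Figure D4:**
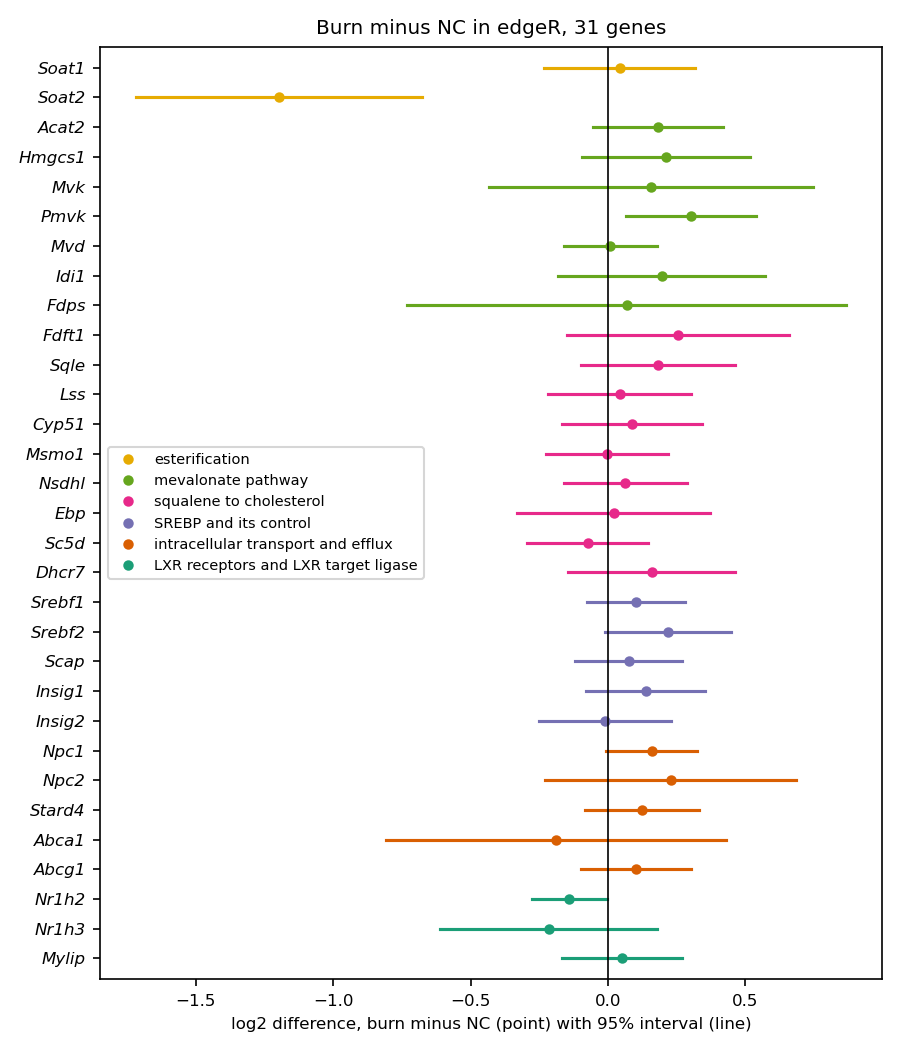
Log2 difference of burn minus NC for the 31 genes in edgeR (points) with 95% intervals (lines), coloured by role. Soat2 lies at -1.20, and the other 30 genes lie between -0.22 and 0.30.

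The enzymes of the mevalonate pathway turn acetyl-CoA into farnesyl diphosphate. All 7 had slightly higher values in burn under TMM scaling, although Mvd was at -0.01 with RLE size factors. The median log2 difference was 0.18, and 0.11 without NC 4. Pmvk, phosphomevalonate kinase (ENSMUSG00000027952; chromosome 3, 89454541 to 89469013, plus strand), held 8.62, 9.48 and 10.5 CPM at the lowest, median and highest burn library. NC 1 to 4 held 7.18, 6.97, 8.32 and 8.51 CPM. The groups came close and did not overlap under TMM scaling, but did overlap with the RLE size factors of DESeq2. Its log2 difference was 0.30 (SE 0.11). Mvd, the decarboxylase of the pathway and its most highly expressed member per length, differed least between the groups in its role. It held 15.7, 17.1 and 17.5 CPM at the lowest, median and highest burn library and 16.5, 15.8, 16.6 and 18.6 in NC 1 to 4, with a log2 difference of 0.01 (SE 0.08). Hmgcs1, which condenses acetyl-CoA units to HMG-CoA and whose promoter is printed above, had 37.3 CPM in burn 1 and 22.6 to 27.2 in the other burn libraries. NC libraries held 20.4 to 26.9 CPM of it. Acat2 is the cytosolic thiolase of the first step and differs from the sterol acyltransferases despite the shared abbreviation. It stood at 9.94 ± 0.80 CPM (burn) and 8.76 ± 0.91 (NC). Mvk, mevalonate kinase, held 3.33 to 5.23 CPM in burn but 1.99 in NC 1, from 65 counts, and 6.10 in NC 3. Idi1, the isomerase of isopentenyl diphosphate, stood at 5.43 ± 0.67 and 4.73 ± 1.10 CPM.

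From squalene synthase to the last reductase, 7 of 9 enzymes had higher values in burn and 2, Msmo1 and Sc5d, had lower ones, with a median log2 difference of 0.06. That median was 0.005 without NC 1, 0.03 without NC 4 and 0.04 without burn 2. Fdft1, squalene synthase, showed the largest of these differences, 0.26 (SE 0.18). It was 0.14 without NC 1, 0.12 without NC 4, 0.14 without burn 2 and -0.03 without both NC 1 and NC 4. Burn libraries held 8.46, 11.4 and 14.3 CPM at the lowest, median and highest, and NC 1 to 4 held 7.03, 10.99, 12.1 and 7.66 CPM, so the groups overlapped. Fdft1 shares 16.6% of its 75-base stretches with Ctsb, a gene on the opposite strand with 199221 counts over all libraries against 3554 for Fdft1. How strand was handled in counting is not given, so reads of the pair may be mixed. Ctsb itself differed by -0.03. Ebp, the sterol isomerase, was the most abundant per length of the synthesis enzymes among the members. It held 25.5, 29.95 and 32.3 CPM at the lowest, median and highest burn library and 19.8, 27.0, 41.2 and 28.3 in NC 1 to 4. The NC libraries lay on both sides of the burn range, and the log2 difference was 0.02 (SE 0.16), or -0.12 without NC 1. Sqle, squalene epoxidase, a rate-setting step, stood at 9.37 ± 0.84 CPM (burn) and 8.27 ± 1.37 (NC). Dhcr7, which makes the final reduction, stood at 16.8 ± 2.3 and 15.01 ± 2.9 CPM. Cyp51, the lanosterol demethylase, stood at 22.9 ± 1.2 and 21.5 ± 4.4 CPM, and Lss, the lanosterol synthase, at 11.6 ± 1.4 and 11.2 ± 1.4 CPM. Sc5d, a desaturase, stood at 27.0 ± 1.6 and 28.4 ± 4.6 CPM. The oxidase Msmo1 and the decarboxylating dehydrogenase Nsdhl differed by -0.002 and 0.06 on the log2 scale.

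The enzymes together kept their direction, but its size moved with single libraries and with scaling. Of the 16 synthesis enzymes 14 had higher values in burn, with a median log2 difference of 0.12. With RLE size factors 12 of 16 did, with library totals alone 15 of 16 (median 0.18), and without NC 1 the count was 10 of 16 and the median 0.07. It was 11 of 16 without burn 2, NC 3 or NC 4, with medians of 0.06, 0.13 and 0.05, and 15 of 16 without burn 1 (median 0.10). The share of all genes with higher values in burn moved too. It was 54.7% in the main fit, 50.2% with RLE size factors and 62.3% with library totals alone. With 1 library left out it ran from 46.1% (NC 4) to 55.0% (burn 1), and was 52.7% without NC 1. NC 1 was the lowest library for 9 of the 16. Averaged over the 16 enzymes, log2 CPM stood 0.24 below the mean of all libraries in NC 1 (-0.24), against 0.01 above it in NC 3 and -0.08 in NC 4. Burn libraries ranged from -0.05 in burn 4 to 0.12 in burn 2. For 5 members, Mvk, Msmo1, Ebp, Scap and Npc2, the 10 libraries had their lowest value in NC 1 and their highest in NC 3 (16.1% of members, 8.92% of all genes). T cell markers (10 of 10 with counts) had the same extremes, with sums of 1450 CPM in NC 1, 2522 in NC 3 and 1675 to 2125 in burn. B cell markers (8 of 8 with counts, all 8 with a higher mean in burn) summed to 2044 to 3026 CPM in burn and 1923, 1891, 1933 and 2541 CPM in NC 1 to 4. The part of either cell type in the enzyme values was not tested.

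**Figure D5:**
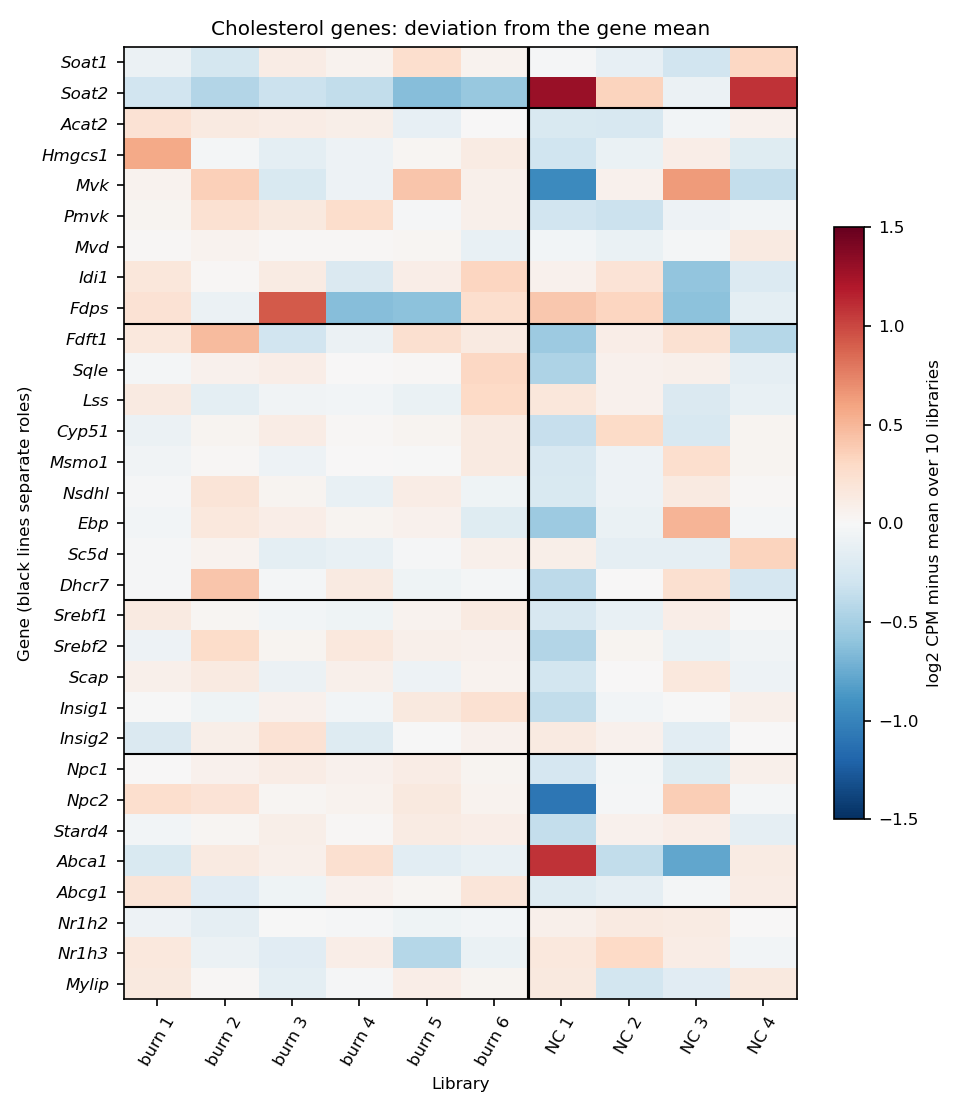
Log2 CPM of each gene minus its mean over the 10 libraries (colour), with genes in rows by role and libraries in columns. NC 1 is the lowest library for 17 of the 31 genes, Soat2 is red in NC 1 and NC 4, and NC 1 also shows strong colours for Npc2 and Abca1.

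The SREBP factors and their controls varied little. Srebf2 encodes SREBP2, the main driver of cholesterol synthesis genes. It held 163, 181 and 209 CPM at the lowest, median and highest burn library and 127, 178, 161 and 166 in NC 1 to 4. Burn 1 and burn 3 lay inside the NC range. Its log2 difference was 0.22 (SE 0.11), and 0.13 without NC 1. Srebf1, which encodes SREBP1, the driver of fatty acid genes, stood at 47.6 ± 2.8 CPM (burn) and 44.3 ± 4.6 (NC). Scap, the escort of both, stood at 44.5 ± 2.7 and 42.3 ± 5.2 CPM. The retention protein gene Insig1, itself an SREBP target, stood at 25.6 ± 2.1 and 23.2 ± 3.0 CPM, and Insig2 at 12.53 ± 1.5 and 12.6 ± 1.1 CPM. For the whole role the median log2 difference was 0.10, with 4 of 5 members higher in burn, and was 0.04 without NC 1 and 0.06 without NC 2.

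Of the 5 genes of intracellular transport and efflux, 4 had higher values in burn, with a median log2 difference of 0.12 that was 0.06 without NC 1. Npc2 hands cholesterol from lipoproteins to Npc1 in the lysosome. Burn libraries held 411, 431 and 478 CPM of Npc2 at the lowest, median and highest. NC 1 held 189 CPM, and NC 2 to 4 held 398, 518 and 392. NC 1 alone was far below the burn range, and NC 3 was above it. The log2 difference of 0.23 (SE 0.21) was 0.01 without NC 1 and 0.40 without NC 3. Npc1, the lysosomal membrane partner, stood at 45.2 ± 1.4 CPM (burn) and 40.5 ± 4.2 (NC). Stard4, a soluble sterol carrier, stood at 24.9 ± 1.0 and 22.9 ± 3.2 CPM. Abca1, which loads cholesterol onto apolipoprotein A-I, was the most variable efflux gene. It held 80.1 to 111 CPM in burn and 199, 72.8, 54.5 and 102 CPM in NC 1 to 4. NC 1 was thus the highest library for Abca1 and the lowest for Npc2. Abcg1, which exports sterol to mature high-density lipoprotein, stood at 92.7 ± 8.7 and 86.4 ± 8.0 CPM.

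Among the LXR genes, Nr1h2 and Nr1h3 encode the receptors LXR-beta and LXR-alpha, and Mylip is an LXR target that encodes a ubiquitin ligase limiting lipoprotein uptake. Nr1h2 (ENSMUSG00000060601; chromosome 7, 44549616 to 44553951, minus strand) held 77.1, 81.3 and 83.7 CPM at the lowest, median and highest burn library. NC 1 to 4 held 88.9, 92.3, 92.0 and 84.8 CPM. The groups did not overlap, though burn 3 and NC 4 were close. The log2 difference was small, -0.14 (SE 0.06), and was -0.09 when libraries were scaled by their totals alone and -0.22 without NC 4. Nr1h3 was rare, with 53 to 83 counts per burn library and 64 to 88 per NC library. It held 1.52, 1.92 and 2.29 CPM at the lowest, median and highest burn library and 2.30, 2.55, 2.22 and 1.99 in NC 1 to 4, so the groups overlapped. Its log2 difference was -0.22 (SE 0.18). Mylip stood at 76.9 ± 5.4 CPM (burn) and 74.2 ± 11.1 (NC).

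Spread within the groups was uneven. The SD of log2 CPM was larger in NC than in burn for 26 of the 31 members (83.9%), as it was for 75.8% of all genes tested. Abca1, Mvk, Soat2 and Npc2 had the largest SD within NC, at 0.80, 0.68, 0.65 and 0.63 log2 units, where burn had 0.18, 0.25, 0.14 and 0.09.

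A second list held 52 further genes of these pathways that are not members, of which 51 could be tested; Ch25h, with at most 1 count in a library, could not. In edgeR 0 of the 51 passed at an adjusted p under 0.05, and DESeq2 also called 0. At an unadjusted p under 0.05 edgeR had 7 of the 51, where 11.3% of all genes tested were under that bound. Of the 51, 32 had higher and 19 lower values in burn, with a median log2 difference of 0.03. Among the members, the SREBP targets Hmgcs1, Insig1 and Sqle overlapped between the groups, as most members did. The mevalonate enzyme Pmvk did not overlap under TMM scaling, but did with RLE size factors. Of all genes tested, 2.03% did not overlap under TMM scaling.

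The 5 genes of that list described next were among the 6 with the smallest p and did not pass in edgeR, with adjusted p from 0.39 to 0.43. Apoe, the apolipoprotein that macrophages secrete with cholesterol, stood at 272 ± 30 CPM (burn) and 346 ± 58 (NC), a log2 difference of -0.35 (SE 0.12). Mbtps1, the site-1 protease that cuts SREBP, stood at 109 ± 5 and 92.5 ± 12.3 CPM. Fads2, a desaturase of fatty acids driven by SREBP1, held 5.18 to 8.98 CPM in burn and 22.5, 12.7, 11.6 and 4.84 CPM in NC 1 to 4. Its difference of -0.81 was -0.40 without NC 1. Fads1, its neighbour in function, stood at 6.44 ± 0.91 and 8.22 ± 1.23 CPM. The transporter Abcg4 was rare, with 4 to 20 counts per burn library and 16 to 32 per NC library. Platelet markers (8 of 8 with counts) ordered the NC libraries as Fads2 did, with 11572, 6300, 5779 and 2810 CPM in NC 1 to 4 and 2443 to 5009 in burn. Their part in these differences was not tested.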

How the data were processed

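mRNA-seq libraries of 10 blood samples were analysed. Per the file headers, the authors deposited read counts and FPKM for every library, and the count columns held whole numbers. Deposited FPKM could be recomputed from the counts, the library total and an integer length per gene to within a relative 5.2e-15. Per the submitters' processing notes the genome was mm10. Aligner, counter and strand handling: not given in the sources used here. Per the labels' protocols, extraction used TRIzol, and an ABclonal mRNA kit gave paired-end libraries. Positions and transcripts came from GENCODE release M21 on the same build.

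Counts were tested with edgeR 4.0.16 in R 4.3.3: filterByExpr with a minimum count of 10, TMM factors, the quasi-likelihood F test of burn against NC with no covariate, and Benjamini-Hochberg adjustment over all 17268 genes. CPM are TMM-scaled and are given as mean ± SD. The test was checked on simulated data. DESeq2 1.42.0 and limma 3.58.1 gave alternatives, 19 planned and 1 added after the data were seen. Members, the second gene list and the marker lists were chosen with earlier results of these data known. Values by library are given for Soat2 and Soat1, members with separated groups, the 6 members with the largest difference and the member of highest mean FPKM in each role. Of the second list, 5 of the 6 genes with the smallest p are named, and some genes that the rule chose are not reported here. Other values were added after they were seen. Counts of every replicate pair differed beyond sampling noise, with a chi-square per degree of freedom of at least 15.7 in burn and 77.3 in NC. Libraries held 30677206 to 36379663 counts, and counting error adds to the spread between libraries most for members with few counts.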

Additional observations from a re-analysis of the deposited data

Results flagged for a closer look

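Within each group, the highest and lowest library of every member and of the 5 named further genes were compared with the rest, 72 gene and group combinations in all. In 4 of them 1 library stood apart by Dixon's test, and chance flags about 1 in 20. Hmgcs1 stood at 37.3 CPM in burn 1, where the other burn libraries held 22.6 to 27.2. Mvd stood at 15.7 CPM in burn 6, below the 17.1 to 17.5 of the other burn libraries. Sqle stood at 10.98 CPM in burn 6, above the 8.67 to 9.51 of the others. Abcg4 stood at 0.93 CPM in NC 2, above the 0.49 to 0.55 of the other NC libraries.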

How the results depend on the processing

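Counts of genes called over the whole table were 0 in the main edgeR fit, 85 in DESeq2, 1 with limma on log2(FPKM + 1), 1 on log2(FPKM + 0.1), and 0 to 10 when 1 library was left out (10 without burn 1, 3 without NC 4). With NC 1 and NC 4 both left out, chosen after the data were seen, it was 27. No further alternative called a gene. The second list had 0 calls in every alternative. The Soat2 log2 difference, -1.20, stayed below 0 in all 20 alternatives. It was -0.74 with limma on log2(FPKM + 1), a scale that shrinks low genes, -0.57 without both NC 1 and NC 4, and -1.43 to -0.96 with 1 library left out. The median of both esterification genes, -0.58, was -0.17 without both NC 1 and NC 4. The median of the transport and efflux genes, 0.12, was 0.18 with library totals alone, 0.18 on log2(FPKM + 0.1), and 0.061 to 0.14 with 1 library left out. The median of the LXR genes, -0.14, was -0.22 to -0.14 with 1 library left out. The cause of these shifts was not tested. With the replicate number as a block, edgeR called 0 genes and the Soat2 difference was -1.02. Same-numbered libraries deviated together for number 4 alone (correlation 0.34, against -0.07 to -0.04 for numbers 1 to 3), so the numbers were not taken as pairs. The median of all genes, 0.02, was 0.001 with RLE size factors and 0.07 with library totals alone. With 1 library left out, differences near 0 changed sign for Ebp (-0.12 to 0.20), Soat1 (-0.07 to 0.12) and Mvd (-0.05 to 0.03). Depth limits Fdps, Nr1h3, Abcg4, Mvk and Idi1, where at least 1 library held under 100 counts.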
